A study of Mus musculus with 7 samples.

Results

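The semaphorins, plexins and neuropilins are a family of guidance ligands and their receptors. All array probes named Sema with a number and a letter, Plxn with a letter, Nrp1 or Nrp2 were taken, whatever their values. The rule gave 41 probes for 31 genes, of 36373 genes with a probe on the array. They comprised 20 semaphorins, 9 plexins and 2 neuropilins. All samples came from forelimbs of C57/Bl6 mice at E11.5 (embryonic day 11.5). RNA of the microdissected apical ectodermal ridge (AER), the thickened rim of epithelium at the edge of the bud, was hybridised to 3 arrays. Surface ectoderm from the posterior part of the limb was the control, on 4 arrays. Each array held RNA pooled from 2 to 3 mice, none of them carrying a stated transgene or treatment, and 75 ng of total RNA was labelled with Cy3. The comparison asks which members of the family differ in expression between these dissected tissues.

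Semaphorins share an extracellular Sema domain. Those of class 3 are secreted, those of classes 4 to 6 span the membrane, and Sema7a is held on the cell surface by a lipid anchor. Plexins are the main receptors and act on small GTPases and the cytoskeleton through their cytoplasmic part. Neuropilins have a short cytoplasmic tail, bind class 3 semaphorins together with plexins, and also bind members of the VEGF family. In the limb bud the family is known for steering motor and sensory axons and growing vessels.

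Values are log2 of the processed signal relative to the 75th percentile of the array, so 0 is that percentile. Since probes differ in brightness, levels are set side by side between arrays and not between genes. The 75th percentile itself ranged over 395 to 662 signal units in AER and over 296 to 520 in ectoderm. Ectoderm arrays 2 and 4 share a number in the names of their files and were the closest pair across genes (r = 0.995, against 0.985 to 0.990 for the other ectoderm pairs). They were counted as 2 samples, and whether they hold separate pools was not tested. Averaging them ended the Plxnb1 call alone among the 12 members that passed (0.79, adjusted p = 0.0842). Each member probe was printed as 1 spot. Across 399 probes printed 10 times, with no filter on signal, the median SD between spots was 0.243 on AER array 1 and 0.236 on AER array 2 (log2), and 0.0827 to 0.0996 on the other arrays. Marker lists of several cell types differed between the dissected samples. Of 20 pan-epithelial genes 17 were higher in AER and 0 lower, and their mean ranged from 2.71 to 2.89 in AER and from 0.98 to 1.38 in ectoderm. Limb mesenchyme genes went the other way, with 9 of 10 lower in AER and 0 higher, and means of 1.20 to 1.70 in AER against 4.27 to 4.99 in ectoderm. Lum, Dcn and Osr1, the genes of that list with the largest differences, were above background on 2 of 3 AER arrays and on all 4 ectoderm arrays. The other genes of the list, Prrx1 and Tbx5 among them, were above background on all 3 AER and all 4 ectoderm arrays. Twist1 differed by -0.13 (limma adjusted p = 0.68). All 7 muscle progenitor genes tested were lower in AER. Among 10 endothelial genes 0 passed limma's adjusted threshold in either direction, with 1 gene at an unadjusted p under 0.05. Of 7 tested neural, Schwann and melanoblast genes 2 were higher in AER and 0 lower. Tubb3 was higher by 1.80 (adjusted p = 0.000523) and Dct by 4.71 (adjusted p = 0.00138; above background on 1 ectoderm array). At an unadjusted limma p under 0.05, 3 genes of the list were higher and 1 lower. The lower one was Sox10 (-1.38, adjusted p = 0.0888). The list means ran from -1.03 to -0.73 in AER and from -2.17 to -1.65 in ectoderm. They include Dct, which read -6.12 to -3.35 on the ectoderm arrays. Of 14 AER genes 13 were higher in AER and 0 lower. All of these marker lists were chosen with earlier results of these data known. Their counts are therefore no separate check of the tissue labels. The plot of marker lists gives these means on every array.

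**Figure D1:**
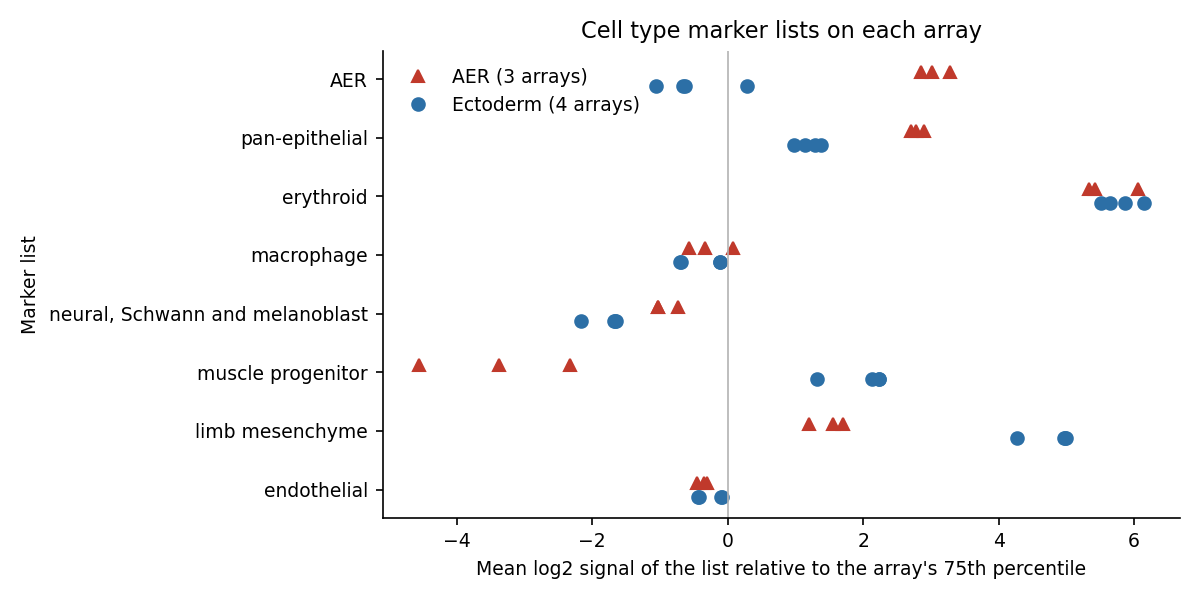
Mean log2 signal of 8 marker lists (x axis, relative to the array's 75th percentile) on each AER array (triangles) and each ectoderm array (circles). Pan-epithelial means range from 2.71 to 2.89 in AER against 0.98 to 1.38 in ectoderm, and limb mesenchyme means between 1.20 and 1.70 against 4.27 to 4.99.

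Of the 31 genes, 30 had a probe well above background on at least 3 arrays and were tested. Plxnb3, a plexin of the B class, was above background on no array. In the AER arrays 4 members were higher, namely Sema5b, Nrp1, Sema4d and Plxnb1, and 8 were lower, namely Sema6b, Plxna4, Sema3c, Sema4f, Sema3a, Sema5a, Sema7a and Sema3d. The differing members made up 40.0%, against 15.7% of all 20828 genes tested (limma, Benjamini-Hochberg adjusted p under 0.05). Members higher in AER made up 13.3%, against 7.01% of all genes, and members lower in AER 26.7%, against 8.65%. In 19 of 30 members, or 63.3%, no AER array fell within the range of the ectoderm arrays or the reverse, against 30.4% of all genes. Of these 19 members 8 were higher and 11 lower, and 7 of the 19 did not pass the adjusted threshold. The family was chosen with earlier results of these data known, and the part of that choice in these shares was not tested. The median difference over the 30 members was -0.17 (log2), beside -0.08 over all genes. By group, 2 of 20 semaphorins were higher and 7 lower, 1 of 8 tested plexins was higher and 1 lower, and 1 of 2 neuropilins was higher.

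These directions are relative to the 75th percentile. Centring each array on its pan-epithelial genes instead lowers every difference by about the same amount and moves the median of all genes from -0.08 to -1.68. Then 0 members were higher and 27 lower, Nrp1, Sema4d and Plxnb1 turned negative, and Sema5b stood at 0.03. In these bulk samples, fewer cells of a type and less RNA per cell cannot be told apart, and the part of the marker differences in the members' differences was not tested.

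**Figure D2:**
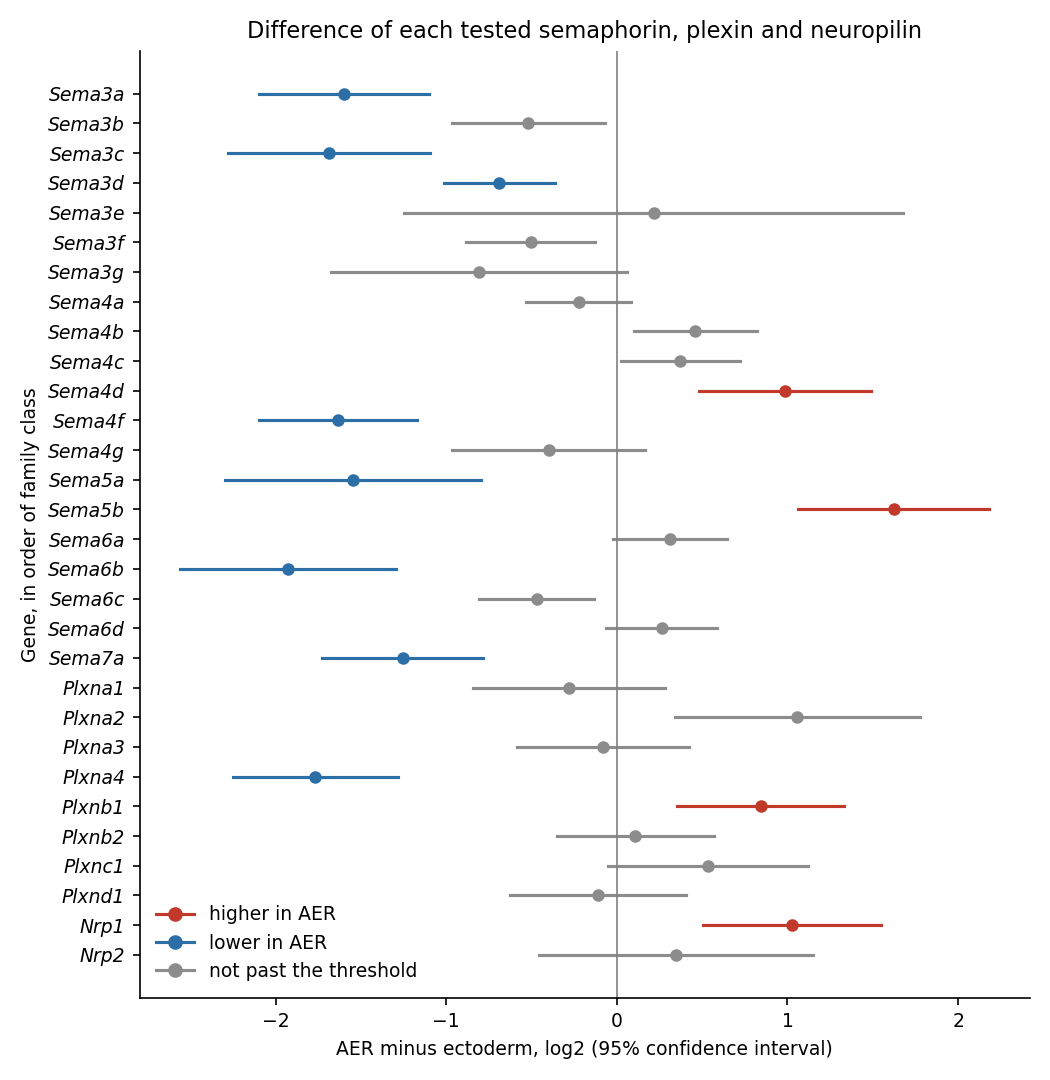
AER minus ectoderm difference (x axis, log2) of the 30 tested members, in order of family class, with 95% confidence intervals from limma over 3 AER and 4 ectoderm arrays. The 4 genes higher in AER and the 8 genes lower are coloured; Sema6b lies at -1.93 and Sema5b at 1.62, and all differences move down under centring on pan-epithelial genes.

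Among the secreted class 3 semaphorins, 3 of 7 were lower in AER and 0 higher, with a median difference of -0.69. Sema3a, the class's best known repellent of axons, read -1.39, -1.11 and -0.87 on AER arrays 1 to 3 and 0.69, 0.64, -0.02 and 0.61 on ectoderm arrays 1 to 4. All AER arrays lay below all ectoderm arrays, and ectoderm array 3 was the lowest of its group. The fold was 3.03 lower in AER (95% CI 2.15 to 4.29; log2 difference -1.60, SE 0.22; limma adjusted p = 0.00151). Its probe lies at chr5:13602462-13602521 (mm9, plus strand). The other Sema3a probe, at chr5:13473453-13473512, lies 129009 bases away and gave -1.29 (adjusted p over all probes 0.00749; 15% of all probes passed). It read -2.58, -2.48 and -1.91 on AER arrays and -0.55, -1.07, -1.32 and -1.18 on ectoderm arrays, again without overlap. Since these 2 probes sit far apart along the gene and were both lower in AER, the first 30 of their 60 bases are shown.
Sema3a, probe at chr5:13602462-13602521: gatgggaactagaaaactggagagaaaaat
Sema3a, probe at chr5:13473453-13473512: tatgcctgtggaactggggctttccatcca

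Sema3c, a secreted semaphorin that also attracts some cells, read -1.09, -0.95 and -0.22 on AER arrays and 1.20, 1.11, 0.47 and 0.95 on ectoderm arrays. The groups did not overlap, with AER array 3 nearest to the ectoderm arrays. Sema3c was 3.22-fold lower in AER (95% CI 2.14 to 4.85; log2 difference -1.69, SE 0.26; adjusted p = 0.00279; probe at chr5:17235981-17236040, mm9). Its other probe, 1903 bases away, was not well above background on any AER array and was above it on all 4 ectoderm arrays. Its AER values were set to the lowest signal called well above background on each array, or to the probe's own signal where higher. That probe was then 3.70-fold lower. The lowest signal so called is not a detection limit, so this fold is no strict lower bound. The adjusted p of 0.000299 belongs to the probe's fitted difference of -2.32, which has no such floor. Sema3d, another secreted repellent, read -2.44, -2.59 and -2.43 on AER arrays and -1.71, -1.67, -1.84 and -1.97 on ectoderm arrays. The arrays of each group lay close together and the groups did not overlap. The difference was the smallest among the members that passed, at 1.61-fold lower (95% CI 1.29 to 2.02; log2 difference -0.69, SE 0.14; adjusted p = 0.0127; probe at chr5:12586981-12587040, mm9). The call did not hold with the slide row as a block (-0.63, adjusted p = 0.0502) or with normexp, another background correction (-0.52, adjusted p = 0.0548).

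The other 4 class 3 genes did not pass the threshold. Sema3f, a ligand bound mainly by Nrp2, differed by -0.50 (adjusted p = 0.0764), Sema3b by -0.52 (adjusted p = 0.113) and Sema3g by -0.81 (adjusted p = 0.191). For Sema3f the groups did not overlap, and for Sema3b and Sema3g they did. Sema3e, the class 3 member that binds Plxnd1 without a neuropilin, differed by 0.22 (adjusted p = 0.847). It read -3.35, -3.75 and -3.28 on AER arrays and -1.65, -4.65, -4.18 and -4.23 on ectoderm arrays, and was above background on 3 AER arrays and 1 ectoderm array. Ectoderm array 1 was the highest of all 7 arrays, above the AER arrays, while the other 3 ectoderm arrays lay below them. Without ectoderm array 1 the adjusted p was 0.0327, but the 3 ectoderm arrays left were then all not well above background, so the fitted size of 0.89 is no measured difference. Without any other array the adjusted p was 0.802 to 0.984.

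In the RefSeq gene table of GRCm38.p6, Sema3d and Sema3a are neighbours on chromosome 5 with 0 protein-coding genes between them. There are 3 between Sema3a and Sema3e and 15 between Sema3e and Sema3c. The 3 class 3 genes lower in AER therefore lie in 1 stretch of that chromosome, together with Sema3e, which did not pass. For the 3 genes lower in AER, the 250 bases before their RefSeq start sites (GRCm38.p6, plus strand) are shown. Capitals mark matches on either strand to any of 3 motifs. The GC box, spelled GGGCGG, was found in 32.7% of all 32851 RefSeq promoter windows of that length. The TATA box, searched for with the spelling TATAAA, was found in 12.4% of them. The core bound by many homeodomain proteins, with the spelling TAATTA, was found in 4.84%. Overlapping matches were each counted.
Sema3d, chr5:12382916-12383165: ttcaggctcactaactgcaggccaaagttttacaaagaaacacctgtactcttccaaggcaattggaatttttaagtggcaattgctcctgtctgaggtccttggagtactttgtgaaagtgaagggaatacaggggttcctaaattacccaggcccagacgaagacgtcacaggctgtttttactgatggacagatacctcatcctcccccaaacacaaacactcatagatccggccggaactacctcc
Sema3a, chr5:13396534-13396783: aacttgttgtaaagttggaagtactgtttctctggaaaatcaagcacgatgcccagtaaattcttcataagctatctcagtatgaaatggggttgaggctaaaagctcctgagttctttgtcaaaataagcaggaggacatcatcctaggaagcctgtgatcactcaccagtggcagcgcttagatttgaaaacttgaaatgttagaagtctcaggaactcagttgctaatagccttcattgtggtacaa
Sema3c, chr5:17574566-17574815: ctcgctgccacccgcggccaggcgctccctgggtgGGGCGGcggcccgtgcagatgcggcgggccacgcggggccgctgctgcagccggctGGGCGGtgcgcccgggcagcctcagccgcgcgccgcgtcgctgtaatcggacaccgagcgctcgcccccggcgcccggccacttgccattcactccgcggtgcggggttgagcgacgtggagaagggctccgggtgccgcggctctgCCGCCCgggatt

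The Sema3c window held 3 GC boxes and 78.4% G or C, and the Sema3a and Sema3d windows held none of the 3 motifs and 40.8% and 46.8% G or C. Over all members, 26 genes matched the RefSeq promoter table with 37 windows. A GC box was in 27 of the 37, and a TATA box or a homeodomain core in 0. The missing motifs say only that these letters are not in these windows.

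Of the 6 transmembrane class 4 semaphorins, 1 was higher in AER and 1 lower. Sema4d, the ligand of Plxnb1 and a molecule also known from the immune system, read 0.65, 0.45 and 1.21 on AER arrays and -0.50, 0.00, -0.04 and -0.31 on ectoderm arrays. AER array 3 was the highest, and no ectoderm array reached the AER arrays. Sema4d was 1.98-fold higher in AER (95% CI 1.40 to 2.80; log2 difference 0.98, SE 0.22; adjusted p = 0.0178; probe at chr13:51796617-51796676, mm9). Without ectoderm array 4 its adjusted p was 0.0552, and with normexp background correction and the 75th percentile its difference was 0.61 (adjusted p = 0.123). Sema4f read -2.89, -3.05 and -2.82 on AER arrays and -1.37, -1.10, -1.72 and -0.95 on ectoderm arrays. The AER arrays lay close together, over 1 log2 unit below the lowest ectoderm array. Sema4f was 3.11-fold lower (95% CI 2.25 to 4.28; log2 difference -1.64, SE 0.20; adjusted p = 0.000908; probe at chr6:82862388-82862447, mm9). Normexp shrank that difference to -0.85, still past the threshold. A second Sema4f probe was above background on no array.

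The other class 4 genes differed by less. Sema4b stood at 0.46 (adjusted p = 0.0852) and Sema4c, a ligand of Plxnb2, at 0.37 (adjusted p = 0.140), with AER arrays above all ectoderm arrays in both. Sema4a differed by -0.22 (adjusted p = 0.291), with AER arrays below all ectoderm arrays, and Sema4g by -0.40 (adjusted p = 0.305), with overlap. In the authors' deposited values Sema4b (0.66, adjusted p = 0.00586) and Sema4c (0.76, adjusted p = 0.0299) passed the threshold.

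The 2 class 5 semaphorins, transmembrane proteins with thrombospondin repeats, moved in opposite directions. Sema5b read -0.15, -0.19 and -1.05 on AER arrays and -2.31, -2.08, -1.80 and -2.15 on ectoderm arrays. AER array 3 was the lowest of its group, and still above every ectoderm array. Sema5b was 3.08-fold higher in AER (95% CI 2.09 to 4.54; log2 difference 1.62, SE 0.24; adjusted p = 0.00252; probe at chr16:35663660-35663719, mm9). Its other probe lies 621 bases further, at chr16:35664281-35664340, and read -0.28, -0.21 and -1.20 on AER arrays and -2.52, -1.99, -2.05 and -2.16 on ectoderm arrays. The array order within the AER group was close to that of the first probe, and the difference was 1.62 again (adjusted p over probes 0.00375). The first 30 bases of both probes show that 2 different stretches of the transcript gave it.
Sema5b, probe at chr16:35663660-35663719: tggagagtagagatggcagagaatgggttc
Sema5b, probe at chr16:35664281-35664340: cagcaacaaaaaggatgttaagctgtggca

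Sema5a read 2.03, 1.98 and 1.94 on AER arrays and 3.30, 4.16, 2.70 and 3.96 on ectoderm arrays. The AER arrays were nearly equal (SD 0.0442), while the ectoderm arrays spread more (SD 0.666), with ectoderm array 3 lowest. Sema5a was 2.92-fold lower in AER (95% CI 1.74 to 4.91; log2 difference -1.55, SE 0.33; adjusted p = 0.0139; probe at chr15:32626025-32626084, mm9). The promoter windows of these 2 genes, which went opposite ways, are shown with the same capitals (GRCm38.p6, plus strand).
Sema5a, chr15:32244563-32244812: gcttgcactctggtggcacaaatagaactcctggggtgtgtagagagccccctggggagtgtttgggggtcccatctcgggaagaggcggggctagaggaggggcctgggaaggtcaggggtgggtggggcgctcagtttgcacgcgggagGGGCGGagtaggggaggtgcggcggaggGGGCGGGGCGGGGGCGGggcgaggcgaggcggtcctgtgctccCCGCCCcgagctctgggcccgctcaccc
Sema5b, chr16:35541112-35541361: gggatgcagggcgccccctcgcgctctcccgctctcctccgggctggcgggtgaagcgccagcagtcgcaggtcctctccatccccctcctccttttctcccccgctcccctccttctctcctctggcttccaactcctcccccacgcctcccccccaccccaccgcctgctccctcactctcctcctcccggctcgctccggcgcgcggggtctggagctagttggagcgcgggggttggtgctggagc

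Both windows were 72.0% G or C. The Sema5a window held 5 GC boxes, 2 of them overlapping, and the Sema5b window held none.

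Among the transmembrane class 6 semaphorins, 1 of 4 was lower and 0 higher. Sema6b, a ligand of class A plexins, read -2.21, -2.77 and -2.81 on AER arrays and -0.70, -0.52, -1.29 and -0.17 on ectoderm arrays. No arrays overlapped, with ectoderm array 3 nearest to the AER arrays. Sema6b was 3.81-fold lower in AER, the largest difference among members as processed here and by the probe that represents each gene (95% CI 2.46 to 5.90; log2 difference -1.93, SE 0.28; adjusted p = 0.00195; probe at chr17:56262769-56262828, mm9). With the mean over probes Sema3c was larger (-2.004), and with normexp Sema6b (-1.19) was below Plxna4 (-1.42), Sema3a (-1.29), Sema5a (-1.27) and Sema3c (-1.21) in size. Sema6c differed by -0.47 (adjusted p = 0.0660), Sema6a by 0.31 (adjusted p = 0.191) and Sema6d by 0.26 (adjusted p = 0.246). For Sema6c and Sema6d the groups did not overlap. Sema7a, the lipid-anchored semaphorin, which binds beta-1 integrins and Plxnc1, read -2.23, -1.79 and -2.44 on AER arrays and -0.85, -0.68, -1.25 and -0.82 on ectoderm arrays. The lowest ectoderm array, array 3, stayed above the highest AER array. Sema7a was 2.39-fold lower (95% CI 1.72 to 3.31; log2 difference -1.26, SE 0.21; adjusted p = 0.00404; probe at chr9:57810607-57810666, mm9), and normexp gave -0.73.

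Among the class A plexins, the receptors that pair with neuropilins, 1 of 4 was lower in AER. Plxna4 read -0.34, 0.10 and 0.03 on AER arrays and 2.18, 1.56, 1.58 and 1.49 on ectoderm arrays. Ectoderm array 1 stood above the other 3, which lay within 0.1 of each other, and the gap to the AER arrays was 1.38. Plxna4 was 3.40-fold lower (95% CI 2.44 to 4.75; log2 difference -1.77, SE 0.21; adjusted p = 0.000745; probe at chr6:32094602-32094661, mm9). Its other probe was above background on 1 ectoderm array and on no AER array and was not tested. Plxna2 missed the threshold at 1.06 (SE 0.31; adjusted p = 0.0552), although its AER arrays, at 0.50, 1.28 and 1.00, lay above its ectoderm arrays, at -0.24, 0.35, -0.86 and 0.23. The gap between the groups was 0.15. With 1 array left out the adjusted p ran from 0.0498 (1.27, without AER array 1) to 0.155 (0.88, without AER array 2), and the other 5 such fits did not pass. Plxna1 differed by -0.28 (adjusted p = 0.467; 95% CI -0.84 to 0.28) and Plxna3 by -0.08 (95% CI -0.59 to 0.42), both with overlap.

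Of the class B plexins, which include receptors for class 4 semaphorins, 1 of 2 tested was higher in AER. Plxnb1 read 1.43, 2.20 and 1.56 on AER arrays and 1.12, 0.67, 0.95 and 0.81 on ectoderm arrays. AER array 2 was the highest, and the lowest AER array was 0.31 above the highest ectoderm array. Plxnb1 was 1.79-fold higher (95% CI 1.28 to 2.52; log2 difference 0.84, SE 0.21; adjusted p = 0.0313; probe at chr9:109021856-109021915, mm9). The call did not hold without ectoderm array 2 (0.77, adjusted p = 0.0877), array 3 (0.86, adjusted p = 0.0563) or array 4 (0.82, adjusted p = 0.0874), and normexp gave 0.44 (adjusted p = 0.211). Plxnb2 differed by 0.11 (adjusted p = 0.752; 95% CI -0.35 to 0.57). Plxnd1, the vascular receptor of Sema3e, differed by -0.11 (adjusted p = 0.772; 95% CI -0.63 to 0.41), and its second probe by -0.03.

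Plxnc1, the receptor of Sema7a, differed by 0.53 (SE 0.26; adjusted p = 0.197). It read -2.93, -2.36 and -2.68 on AER arrays and -2.66, -3.08, -3.68 and -3.35 on ectoderm arrays, above background on 3 arrays of each group. Ectoderm array 1 lay within the AER arrays. The second Plxnc1 probe was above background on no array and gives no direction.

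Nrp1, the neuropilin that binds Sema3a and VEGF, was higher in AER. It read -0.35, -0.23 and -0.76 on AER arrays and -1.99, -1.27, -1.42 and -1.21 on ectoderm arrays. The groups did not overlap, with ectoderm array 1 lowest and AER array 3 nearest to the ectoderm. Nrp1 was 2.04-fold higher (95% CI 1.42 to 2.93; log2 difference 1.03, SE 0.23; adjusted p = 0.0173; probe at chr8:131026650-131026709, mm9). The call did not hold without AER array 1 (0.98, adjusted p = 0.0542) or without AER array 2 (0.92, adjusted p = 0.0577). Nrp2, the main neuropilin for Sema3f, differed by 0.35 (SE 0.35; adjusted p = 0.532). It read 5.46, 6.29 and 5.57 on AER arrays and 6.31, 4.96, 5.41 and 5.03 on ectoderm arrays. Ectoderm array 1 was as high as the highest AER array, and the other ectoderm arrays lay below the AER arrays. The second Nrp2 probe, 21831 bases away, gave 0.40 with the same array on top. The test of Nrp1 against Nrp2 was not made.

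**Figure D3:**
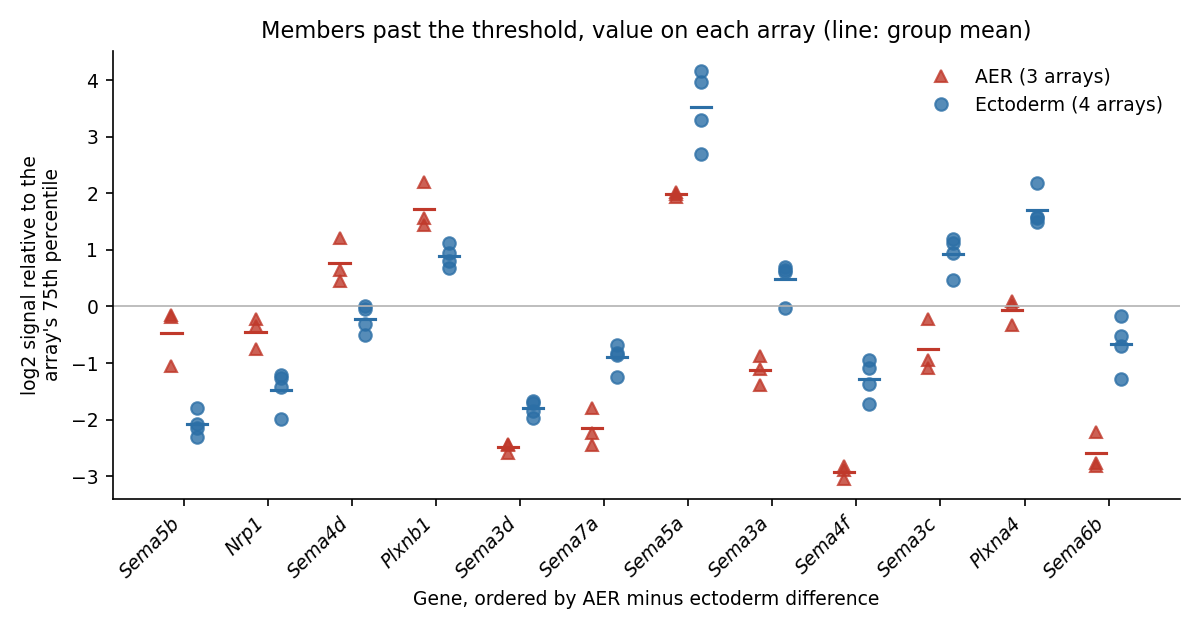
Log2 signal relative to the array's 75th percentile (y axis) of the 12 members past the threshold on each AER array (triangles) and ectoderm array (circles), with lines at group means. In every gene the 2 groups do not overlap; the 4 genes on the left are higher in AER and the 8 on the right lower, before any centring on pan-epithelial genes.

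The probes of a gene had differences of the same sign where both were tested. Of 10 genes with 2 probes, 6 had both above background on at least 3 arrays (Nrp2, Plxnd1, Sema3a, Sema3c, Sema5b and Sema6d), and in all 6 the differences had the same sign. For Nrp2, Plxnd1 and Sema6d neither probe passed, so the shared sign says little there. The second Sema3c probe was not well above background on any AER array. The Sema6d probes gave 0.26 and 0.70, and the second was above background on 1 ectoderm array. In all, 36 of the 41 probes were kept, and 4 were above background on no array. All were 60 bases long, and the longest run of bases shared by probes of different members was 20, between Sema4c and Sema6d. The G and C content of the probes ran from 26.7% to 68.3%.

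All arrays were on 1 slide, whose row 1 held AER array 1 and ectoderm arrays 1 to 3, and row 2 held AER arrays 2 and 3 and ectoderm array 4. The 12 differing members had the same sign within row 1 and within row 2. For Sema5b the differences were 1.92 in row 1 and 1.53 in row 2, for Nrp1 1.21 and 0.72, for Sema4d 0.83 and 1.14, and for Plxnb1 0.52 and 1.07. For Sema6b they were -1.37 and -2.63, for Plxna4 -2.11 and -1.42, for Sema3c -2.02 and -1.53, and for Sema4f -1.49 and -1.99. For Sema3a they were -1.82 and -1.60, for Sema5a -1.36 and -2.003, for Sema7a -1.31 and -1.30, and for Sema3d -0.70 and -0.54. Each row held a single array of 1 group, whose spread was taken to be that of the other group. With the row as a block, 2 members were higher and 7 lower. The calls lost were Nrp1 (0.98, adjusted p = 0.0534), Plxnb1 (0.78, adjusted p = 0.0903) and Sema3d (-0.63, adjusted p = 0.0502). AER arrays 1 and 2 shared a slide column without any ectoderm array, so that column and the group cannot be told apart there.

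The lower members were the steadier ones when arrays were left out. All 8 passed the threshold in each of the 7 fits without 1 array, while of the 4 higher members Sema5b did. The margin was narrow for some, with a highest adjusted p of 0.0482 for Sema5a and 0.04755 for Sema3d. Sema4d, a higher member, passed in 6 of the 7 fits, with a highest adjusted p of 0.0552. The 12 differing members kept their sign in the 21 alternatives other than centring on pan-epithelial genes. These are not 21 separate checks. The intensity trend and robust prior cannot change a difference, and the filters left those of Nrp1, Sema4d and Plxnb1 unchanged. The authors' values repeat normexp with quantile normalization, and the replicate block gave the differences found without ectoderm array 4. Over these 21, the difference ran from 1.38 to 1.92 for Sema5b, from -1.82 to -1.26 for Sema3a, from -2.11 to -1.42 for Plxna4 and from -2.63 to -1.11 for Sema6b.

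**Figure D4:**
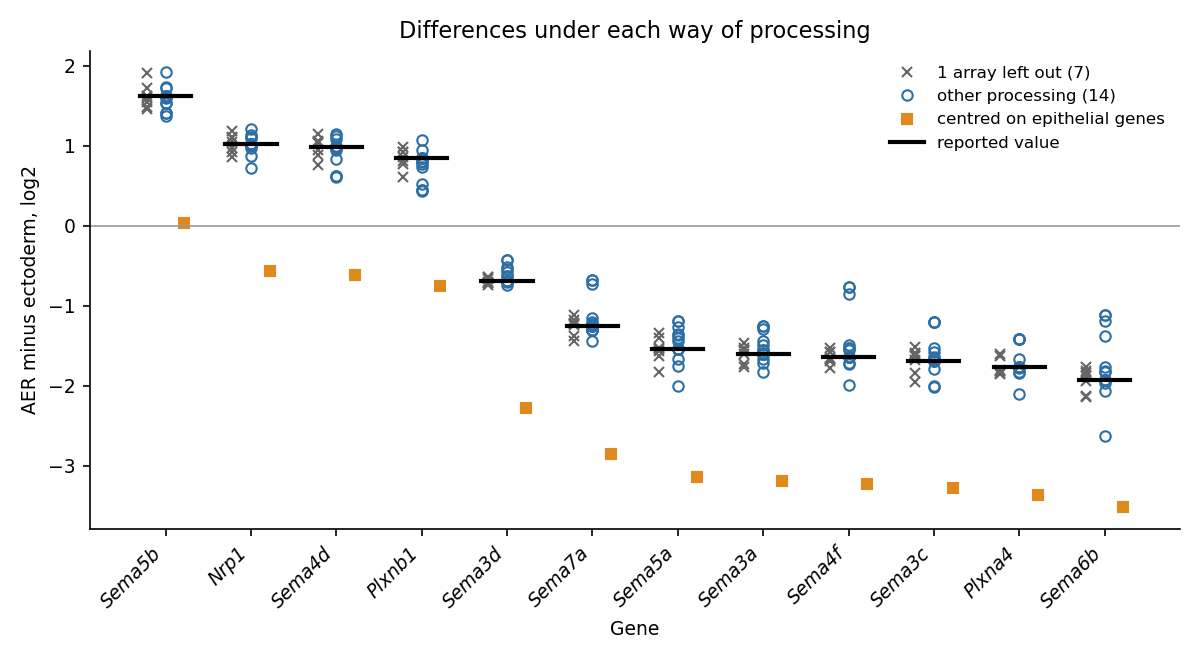
AER minus ectoderm difference (y axis, log2) of the 12 members past the threshold as reported (black lines), with each of 7 arrays left out (crosses), under 14 other ways of processing (open circles) and centred on pan-epithelial genes (squares). Apart from that centring, which leaves Sema5b at 0.03 and turns Nrp1, Sema4d and Plxnb1 negative, all values of a gene lie on the same side of 0. Some of the 14 ways repeat the same difference.

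Known ligand and receptor partners can be set side by side, as differences in AER relative to the 75th percentile. Sema4d (0.98) and its receptor Plxnb1 (0.84) were both higher. Sema6b (-1.93) and Plxna4 (-1.77), a receptor it binds, were both lower. The other class A plexins did not pass, with Plxna2 at 1.06, Plxna1 at -0.28 and Plxna3 at -0.08. Sema3a was lower (-1.60) while its binding receptor Nrp1 was higher (1.03). Sema7a was lower (-1.26), and its receptor Plxnc1 did not pass (0.53). For Sema3f (-0.50) with Nrp2 (0.35), Sema3e (0.22) with Plxnd1 (-0.11) and Sema4c (0.37) with Plxnb2 (0.11), neither partner passed. These pairings were picked with the values known and were not tested as pairs.

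Other receptors and co-receptors of the family were counted from lists chosen with earlier results of these data known. Of 10 tested, 2 were higher in AER and 2 lower, with a median difference of 0.09, where 7.01% of all genes were higher and 8.65% lower. Nrcam and Chl1, adhesion molecules of the L1 family that associate with neuropilins, were higher by 1.98 (SE 0.21; adjusted p = 0.000374) and 1.25 (SE 0.26; adjusted p = 0.0135). Met and Mst1r, receptor tyrosine kinases that associate with class B plexins, were lower by a log2 difference of -1.33 (SE 0.21; adjusted p = 0.00353) and -2.74 (SE 0.36; adjusted p = 0.00119), and Mst1r was above background on 1 of 3 AER arrays, so the size of its difference rests on values at background. L1cam, of the same family as Nrcam and Chl1, did not pass (-0.57, adjusted p = 0.310). Of 7 tested VEGF ligands and receptors, which share neuropilins with the semaphorins, 0 were higher and 2 lower. Pgf, placental growth factor, differed by -2.24 (SE 0.19; adjusted p = 0.000105) and Vegfb by -0.59 (SE 0.14; adjusted p = 0.0253). The VEGF receptors Flt4 (1.09, adjusted p = 0.153) and Kdr (-0.36, adjusted p = 0.453) did not pass.

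Of 35 tested cytoplasmic transducers of plexin signals, 2 were higher and 6 lower, with a median of -0.15, beside the same 7.01% and 8.65% over all genes. Among the collapsin response mediators, which carry the Sema3a signal to microtubules, Crmp1 was higher by 2.15 (SE 0.32; adjusted p = 0.0023) and Dpysl4 lower, at -2.82 (SE 0.15; adjusted p = 2.18e-05). Dpysl3 of that group was lower too (-0.92, adjusted p = 0.0126). Dpysl2 (-0.39, adjusted p = 0.22) and Dpysl5 (0.40, adjusted p = 0.139) of the same group did not pass. Rnd3 differed by -1.07 (SE 0.19; adjusted p = 0.00637) and Micall2, a relative of the MICAL enzymes that act on actin, by -0.97 (SE 0.19; adjusted p = 0.0108). The other gene higher in AER was Mical1 (0.79, adjusted p = 0.0226), while its relative Mical2 was lower (-0.77, adjusted p = 0.0253; above background on 1 of 3 AER arrays). Farp1 was lower as well (-0.76, adjusted p = 0.0109). L1cam, Dpysl2, Dpysl3, Dpysl5, Mical1, Mical2 and Farp1 were named after their values were seen. On the same AER arrays 9 of 10 limb mesenchyme markers were lower, and their part in the differences of partners and transducers was not tested.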

How the data were processed

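The authors deposited 1 Agilent Feature Extraction 10.7.3.1 file per array, with probe positions on mm9, per the file headers. The processed signal is an intensity, background-subtracted and unscaled between arrays, per the file headers. Other deposited columns, per the file headers, flag each spot as well above background, saturated or uneven. The deposited matrix holds the authors' log2 values; the normexp correction with an offset of 50 and quantile normalization gave them back closely. The submitters' processing notes name limma.

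Here log2 intensity had the 75th percentile of its array, taken without control probes, subtracted. Probes well above background on at least 3 of 7 arrays were kept (28282), the probe with the highest mean represented its gene, and limma 3.58.1 (lmFit, eBayes; R 4.3.3) compared 3 AER with 4 ectoderm arrays over 20828 genes, with Benjamini-Hochberg adjustment. Scripts were tested on simulated data. p-values rest on the spread between arrays, counted as separate pools of animals. For ectoderm arrays 2 and 4 that separateness was not tested. The number of arrays limits the precision. Every member was accounted for, with values per array for those past the threshold, for Nrp1 and Nrp2 and where probes disagreed, and up to 4 genes of each partner list with the smallest p. Members and lists were chosen with earlier results of these data known. Exons and untranslated regions under the probes were not looked up. Promoters are from RefSeq. Same-numbered arrays deviated together with r of -0.03, 0.19 and 0.13, and the other pairs with r of -0.26 to 0.18. For AER arrays 2 and 3 the same-numbered ectoderm array had the highest r. These values do not settle whether the numbers pair the samples, and the main fit took them as unpaired. The 22 alternatives covered background correction, centring, filters, probes, weights, slide rows, replicate numbers and left-out arrays. Tables were read and plots drawn with Python 3.11.15, pandas 2.3.3, numpy 2.4.6 and matplotlib 3.10.9.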

Additional observations from a re-analysis of the deposited data

Results flagged for a closer look

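In 3 members a single ectoderm array stood apart from the other 3 by Dixon's criterion for 4 samples, which chance meets in about 1 in 20 groups. Plxna4 read 2.18 on ectoderm array 1, against 1.49 to 1.58 on the others. Sema3e read -1.65 on the same array, against -4.65 to -4.18. Sema3a read -0.021 on ectoderm array 3, against 0.61 to 0.69. On ectoderm array 3 the mean of the limb mesenchyme markers was 4.27, against 4.97 to 4.99 on the others, and that of the AER markers was 0.29, against -1.06 to -0.64. The part of these differences in the Sema3a value was not tested.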

How the results depend on the processing

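Centring on pan-epithelial genes left 0 members higher and 27 lower and turned 12 differences: Nrp1 to -0.57, Nrp2 to -1.25, Plxna2 to -0.54, Plxnb1 to -0.75, Plxnb2 to -1.49, Plxnc1 to -1.06, Sema3e to -1.38, Sema4b to -1.13, Sema4c to -1.22, Sema4d to -0.61, Sema6a to -1.28 and Sema6d to -1.33. By construction it lowers all differences alike. Elsewhere the number of members higher in AER was 2 without the filter on dim probes, 2 with the slide row as a block, 1 in row 1 alone and 0 in row 2 alone, and the number lower was 0 in row 1 and 4 in row 2, with fewer arrays in each row. With 1 array left out, 2 to 5 members were higher and 8 to 10 lower. In the authors' values 6 were higher and 9 lower, with Sema4d and Plxnb1 lost and Sema3b, Sema4b, Sema4c, Sema6a and Sema6d gained. With the replicate block 4 were higher and 7 lower, with Plxnb1 (0.82, adjusted p = 0.111) and Sema3d (-0.75, adjusted p = 0.0628) lost and Plxna2 (1.18, adjusted p = 0.0276) gained. Array weights ended the Nrp1 call (0.88, adjusted p = 0.0528).

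Other changes of sign were in members with small differences. Nrp2 was -0.087 with normexp and -0.10 in row 1, Plxna1 0.26 in row 1, and Plxna3 0.023 with the percentile taken over the probes detected on every array and 0.052 in row 2. Plxnb2 was -0.10 with array weights, -0.012 with the row block, -0.021 in row 1 and -0.0022 in row 2. Plxnd1 was 0.12 with normexp and 0.22 with quantile normalization or the authors' values. Sema4a was 0.038 and 0.053 under these. Sema3e was -0.0605 with normexp and -0.039 with ectoderm arrays 2 and 4 averaged. With 1 array left out, Plxna3 ran from -0.35 to 0.11, Plxnb2 from -0.11 to 0.23, Plxnd1 from -0.29 to 0.088 and Sema3e from -0.11 to 0.89. The cause of these changes was not tested. Dim probes such as those of Sema3e and Plxnc1, above background on some arrays of a group, limit what can be read from them.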
